A study of Mus musculus with 18 samples.

Results

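The transcripts of 9 cell surface receptors with which hematopoietic stem cells (HSCs) hold on to and find the bone marrow niche were followed in 18 RNA libraries of sorted mouse HSCs. The 9 genes are the integrin alpha subunits Itga4, Itga5, Itga6, Itgav and Itgal, the integrin beta subunits Itgb1 and Itgb2, the chemokine receptor Cxcr4 and the hyaluronan receptor Cd44. They were chosen by name for their role, from 24421 gene symbols in the count table, and all 9 passed the filter on low values. The libraries came from Hoxb5-tri-mCherry mice on a C57BL/6J background, in which mCherry reports Hoxb5, a gene that marks long-term HSCs. There were 3 libraries in each of 6 groups, namely young LT-HSCs, young ST-HSCs and young bulk-HSCs from mice of 2 to 3 months, and aged LT-HSCs, aged ST-HSCs and aged bulk-HSCs from mice of 23 to 25 months. LT-HSCs are the Hoxb5-positive and ST-HSCs the Hoxb5-negative cells of the HSC gate, whereas bulk-HSCs are the gate as a whole and therefore hold both. All mice carried the reporter and no group was treated. The labels do not say whether libraries came from separate mice, or whether fractions of one replicate number shared animals, so p-values measure the spread between libraries, which may be technical.

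An integrin is a pair of one alpha and one beta subunit, and the pair decides the ligand. Itgb1 pairs with Itga4 (VLA-4, which binds Vcam1 and fibronectin), Itga5 (VLA-5, which binds fibronectin), Itga6 (VLA-6, which binds laminins) and Itgav, and Itgb2 pairs with Itgal to form LFA-1, the receptor for Icam1. Itgav also pairs with Itgb3. Cxcr4 is the receptor for Cxcl12, the chemokine that stromal cells of the marrow use to draw in and retain HSCs, and signalling through it can switch integrins to their binding state. Cd44 binds hyaluronan and, with the right sugar chains, selectins.

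The gene counts of a library summed to between 16495048 and 22973844, with a median of 20397548. Values are given as CPM, counts per gene scaled to one common library total after a TMM factor for differences in library composition. In these units 3 counts correspond to 0.132 to 0.176 CPM. The number of genes with at least 1 count was 11548 to 13876 in the 9 young libraries and 13526 to 14133 in the 9 aged ones. Of 9653 well-covered genes (median count of 200 or more), 1 to 163 were at 0 in a young library and 2 to 6 in an aged one. The HSC markers Kit, Mecom, Hlf, Fgd5 and Procr were present in all 18 libraries. Hoxb5 averaged 19.1 CPM in young and 22.97 CPM in aged LT-HSCs against 2.08 and 2.21 CPM in ST-HSCs. In bulk-HSCs it averaged 3.97 CPM in young and 9.80 CPM in aged libraries. The authors found fewer ST-HSCs relative to LT-HSCs in the gate of aged mice. The part of this shift in the age differences of bulk-HSCs was not tested. Of the markers of other cells, Ms4a1, Ebf1, Pax5, Cd3e, Cd3g, Cd8a, Gzma, Col1a1 and Cdh5 had 0 counts in all 18 libraries. Other markers from the same lists were present. Lyz2 (86.3 to 149 CPM), Cd79b (10.6 to 29.2 CPM) and Emcn (13.1 to 37.8 CPM) were found in all 18 libraries. The highest library held 129 CPM of Car1, 46.3 CPM of Kdr and 19.3 CPM of Nkg7. The summed megakaryocyte markers, of which Itga2b made up most, ranged from 100 to 191 CPM in young and from 129 to 209 CPM in aged libraries.

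Itga4 and Cxcr4 were the members called lower in aged cells, and the DNA before their transcription starts is shown because they moved together. The 250 bases upstream of the RefSeq start, from the GRCm38.p6 assembly and written 5′ to 3′ on the strand of the gene, are given in lower case. Capitals mark short motifs that were searched on both strands.

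Itga4, chr2:79255176-79255425, plus strand: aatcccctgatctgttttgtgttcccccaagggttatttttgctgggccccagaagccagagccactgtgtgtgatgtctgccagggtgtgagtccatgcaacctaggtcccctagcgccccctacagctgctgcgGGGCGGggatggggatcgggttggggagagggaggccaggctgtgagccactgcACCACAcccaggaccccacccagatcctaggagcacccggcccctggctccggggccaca

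Cxcr4, chr1:128592300-128592549, minus strand: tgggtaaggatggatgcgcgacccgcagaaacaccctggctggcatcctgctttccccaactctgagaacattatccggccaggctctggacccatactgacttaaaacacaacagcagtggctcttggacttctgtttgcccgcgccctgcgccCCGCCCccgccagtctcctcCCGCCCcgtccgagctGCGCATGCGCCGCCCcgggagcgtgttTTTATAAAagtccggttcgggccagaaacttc

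The Itga4 stretch held 1 GC box (GGGCGG) and 1 RUNX motif, read as ACCACA from base -60 to base -55. The Cxcr4 stretch held 3 GC boxes, a TATA box (TATAAA) and the NRF1 core GCATGCGC in both directions, the latter overlapping a GC box. Among 32841 promoters of the same length, 32.7% held the GC box, 14% the RUNX motif (TGTGGT or ACCACA), 12.4% the TATA box and 2.26% the NRF1 core. Neither stretch held the ETS core (CCGGAA), which is in 12% of promoters, or the GATA motif (GATAAG), which is in 6.55%. Neither held the E-box (CACGTG), in 6.02% of promoters, or the AP-1 motif (TGACTCA), in 4.46%. The GC box was thus the motif the 2 stretches shared, but it was not particular to them. The stretches of Itga5 and Itgb1, which were called in no fraction, also held it. These matches describe letters and no binding was measured. RefSeq promoters were held for 6 of the 9 members, and none was used for Itga6, Itgal or Itgb2.

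Itga6, Itga4, Itgav and Cd44 lie on chromosome 2 (mm10, GENCODE release M21). Itga6 is at chr2:71745616-71858416, Itga4 at chr2:79255426-79333123 and Itgav at chr2:83724397-83806916, all on the plus strand, and Cd44 at chr2:102811141-102901665 on the minus strand. Itga5 lies at chr15:103344286-103366763 (minus), Itgal at chr7:127296260-127335138 (plus), Itgb1 at chr8:128685654-128733200 (plus), Itgb2 at chr10:77530252-77565708 (plus) and Cxcr4 at chr1:128588199-128592293 (minus). The values are counts per gene, so isoforms, such as the cytoplasmic variants of Itga6 or the variable exons of Cd44, were not told apart. Exons of Cerkl on the opposite strand share 8.04% of the exon bases of Itga4, and Gm13684 shares 5.9% of those of Itgav. Whether the counting used strand is not given in the sources used here.

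Divided by the summed length of their exons (RPKM), the members spanned a wide range of levels. Over the 18 libraries Cxcr4 was the highest at 81.9 ± 38.0 RPKM (mean ± SD), followed by Itgb1 at 73.0 ± 6.25 and Itga6 at 51.1 ± 15.2 RPKM. Itga4 (25.2 ± 6.18 RPKM), Cd44 (23.5 ± 4.85 RPKM) and Itga5 (22.5 ± 3.43 RPKM) came next and overlapped one another. Itgb2 (9.58 ± 3.27 RPKM) and Itgav (7.99 ± 1.45 RPKM) also overlapped, and Itgal was last at 0.324 ± 0.347 RPKM. Cxcr4, Itgb1 and Itga6 stood above 95% of the tested genes with a length, and Itgal above only 2.42% of them.

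The order was not the same at both ages. In young libraries Cxcr4 averaged 113 RPKM against 69.1 RPKM for Itgb1 and 37.3 RPKM for Itga6. In aged libraries Itgb1 came first at 77.0 RPKM, then Itga6 at 65.0 RPKM and then Cxcr4 at 50.9 RPKM. Itga4 went from the fourth place, at 30.4 RPKM, to the sixth, at 19.9 RPKM. With the longest annotated transcript as the length, Itga6 became the highest of all at 107 RPKM, since its longest transcript (4310 bases) is much shorter than its summed exons (9025 bases). The place of Itga6 against Itgb1 and Cxcr4 therefore rests on the length taken, whereas differences of one gene between libraries do not.

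**Figure D1:**
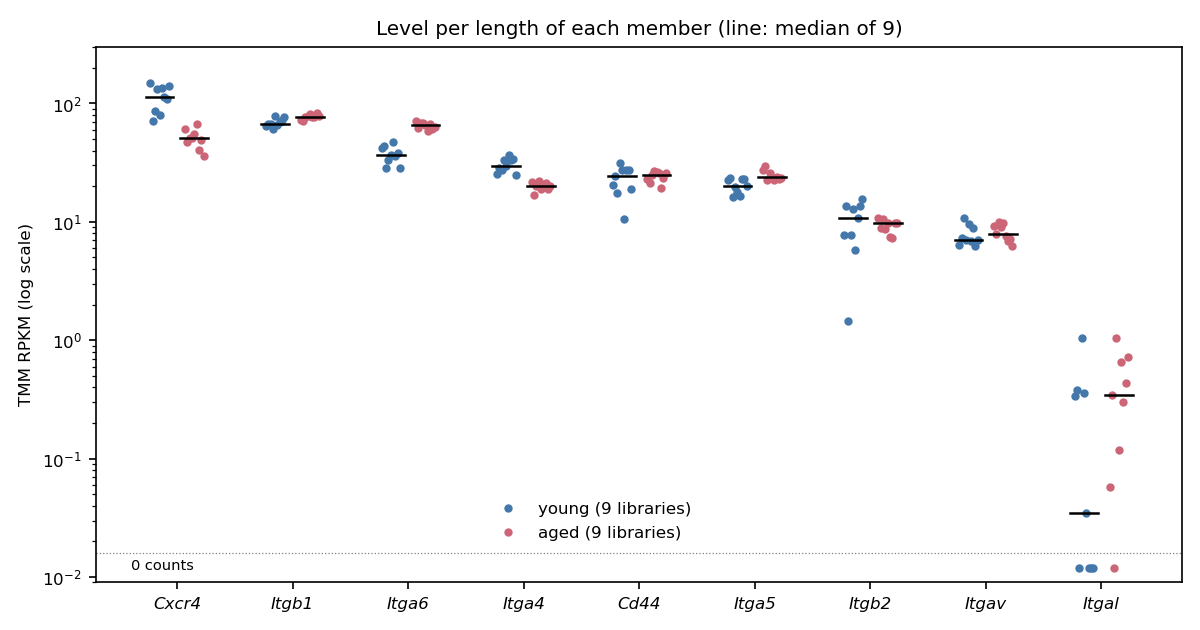
Level per exon length (TMM RPKM, log scale) of the 9 members in 9 young (blue) and 9 aged (red) libraries, with the median of each age as a line and libraries at 0 counts drawn below the dotted line. Cxcr4 leads in young libraries (113 RPKM on average) and lies below Itgb1 and Itga6 in aged ones (50.9 RPKM), and Itgal is near the floor at both ages.

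The first comparison asked which of these receptors differ between young and aged cells of the same fraction. Itga6 was higher in aged cells of all 3 fractions. Itga4 was lower in aged ST-HSCs and bulk-HSCs, and Cxcr4 was lower in aged bulk-HSCs. The other 6 members passed the test in no fraction. A gene was called when its Benjamini-Hochberg adjusted p in edgeR's quasi-likelihood test, over 12808 genes, was under 0.05. In LT-HSCs 1 of 9 members was called higher and 0 lower, against 0.304% and 0.141% of all genes tested. In ST-HSCs 1 was called higher and 1 lower, against 0.625% and 0.226% of all genes. In bulk-HSCs 1 was called higher and 2 lower, against 1.53% and 0.445%. The median log2 fold change of the 9 members was 0.15, 0.19 and -0.095 for LT-HSCs, ST-HSCs and bulk-HSCs, where the median of all genes was 0.036, 0.025 and 0.031.

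The libraries of both ages did not overlap for 4 members each in LT-HSCs and ST-HSCs and for 6 in bulk-HSCs. Among all genes the libraries did not overlap for 16.1%, 17.8% and 22.7%, respectively. With 3 libraries against 3, the smallest p an exact permutation test of a single gene can give is 0.1, so the calls rest on the spread shared across genes and groups.

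**Figure D2:**
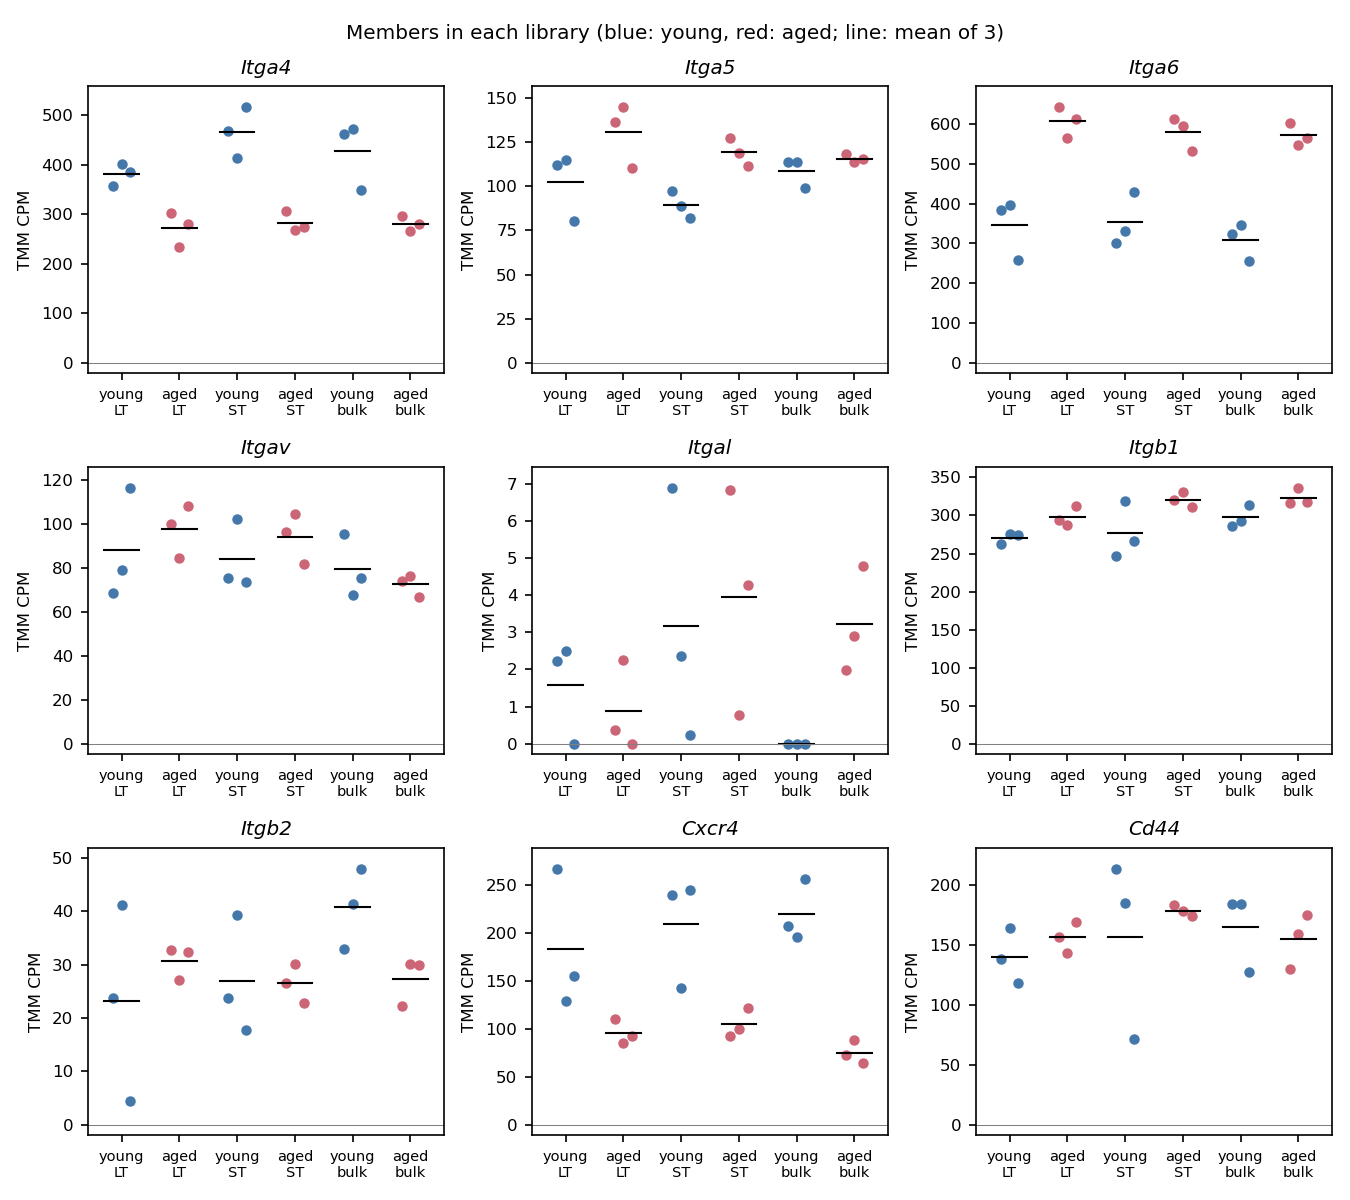
TMM CPM of each member in each of the 18 libraries, on a linear axis from 0, with young libraries in blue, aged libraries in red and the mean of 3 libraries as a line. Itga6 lies higher and Itga4 and Cxcr4 lie lower in every aged library than in every young one, while Itgb2 and Cd44 each have a low young library (4.45 and 71.6 CPM).

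Itga6, the laminin-binding alpha subunit, was higher in every aged library. In LT-HSCs it stood at 383, 397 and 259 CPM in the young libraries and at 644, 565 and 612 CPM in the aged ones, in replicate order. The young libraries were spread over a wider range than the aged, and the ages did not overlap. The log2 fold change was 0.81 (SE 0.16, edgeR adjusted p = 0.0270), or 1.75-fold.

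In ST-HSCs, Itga6 was at 300, 330 and 429 CPM in young and at 612, 596 and 532 CPM in aged libraries (log2 fold change 0.72, SE 0.16, edgeR adjusted p = 0.0390). In bulk-HSCs it was at 325, 347 and 255 CPM in young and at 603, 547 and 566 CPM in aged libraries (log2 fold change 0.89, SE 0.16, edgeR adjusted p = 0.00576). Over all fractions the 9 aged libraries lay between 532 and 644 CPM and the 9 young ones between 255 and 429 CPM. The log2 fold changes differed among fractions by at most 0.17, less than the standard error of that difference (0.22). In LT-HSCs the call was lost when any library but the second young one was left out, with adjusted p from 0.0575 to 0.105, and in ST-HSCs when any library but the third young one was left out, with adjusted p from 0.0723 to 0.160. In bulk-HSCs it was kept in all 6 such fits, at an adjusted p of at most 0.0301.

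Itga4, the alpha subunit of VLA-4, moved the other way. In young LT-HSCs it was at 356, 401 and 386 CPM and in aged LT-HSCs at 302, 234 and 279 CPM. No aged library reached a young one, but the log2 fold change of -0.49 (SE 0.13) did not pass the test (edgeR adjusted p = 0.126). In ST-HSCs the young libraries held 469, 414 and 517 CPM and the aged ones 307, 267 and 275 CPM, the largest difference of Itga4 among the fractions (log2 fold change -0.72, SE 0.13, edgeR adjusted p = 0.00926).

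In bulk-HSCs, Itga4 was at 461, 472 and 348 CPM in young and at 296, 267 and 280 CPM in aged libraries (log2 fold change -0.60, SE 0.13, edgeR adjusted p = 0.0194). Across the fractions all 9 aged libraries (234 to 307 CPM) lay below all 9 young ones (348 to 517 CPM). Leaving out the second aged ST-HSC library raised the adjusted p in ST-HSCs to 0.0634. In bulk-HSCs the call was lost without the first or the second young or the second or the third aged library, at adjusted p of 0.0660, 0.0692, 0.0890 and 0.0751, and with only the bulk-HSC groups in the fit (adjusted p 0.0834).

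Cxcr4, the Cxcl12 receptor, had the widest difference of the well-covered members. In bulk-HSCs it was at 207, 196 and 256 CPM in the young and at 72.6, 88.3 and 64.8 CPM in the aged libraries. The aged level was thus 0.343 times the young one (log2 fold change -1.54, SE 0.25, edgeR adjusted p = 0.00263), and the call was kept in all 6 fits with a library left out, at an adjusted p of at most 0.0211.

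Young LT-HSCs held 267, 129 and 155 CPM of Cxcr4 and aged LT-HSCs 110, 85.6 and 92.3 CPM. The first young library stood well above the other two, and the log2 fold change of -0.93 (SE 0.24) did not pass (edgeR adjusted p = 0.123). Young ST-HSCs held 239, 143 and 245 CPM and aged ST-HSCs 92.3, 99.9 and 122 CPM, with a log2 fold change of -0.996 (SE 0.24, edgeR adjusted p = 0.0644). The second young library was the lowest in both fractions, and without it the adjusted p was 0.0296 in LT-HSCs and 0.0249 in ST-HSCs. DESeq2 called Cxcr4 in both (adjusted p of 0.00398 and 0.00110), and edgeR did in ST-HSCs when each library had to hold 10 counts of a gene (adjusted p = 0.0418). Of 12808 genes, DESeq2 called 290 in LT-HSCs and 448 in ST-HSCs, where the main edgeR fit called 57 and 109. Fewer transcripts per cell and fewer cells with the transcript cannot be told apart in bulk RNA.

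Itga5, the fibronectin receptor subunit, ranged from 80.4 to 115 CPM in young and from 111 to 145 CPM in aged libraries. The log2 fold change was 0.35 (SE 0.15, edgeR adjusted p = 0.485) in LT-HSCs, 0.42 (SE 0.15, adjusted p = 0.272) in ST-HSCs and 0.088 (SE 0.15, adjusted p = 0.918) in bulk-HSCs, so none passed.

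Itgav, which binds vitronectin and fibronectin, was at 67.6 to 116 CPM in young and at 66.8 to 108 CPM in aged libraries. Its log2 fold changes, 0.15, 0.17 and -0.13 in LT-HSCs, ST-HSCs and bulk-HSCs, had a standard error of 0.20 and overlapping libraries throughout.

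Itgb1, the common partner of 4 of these alpha subunits, was the steadiest member. It ranged from 247 to 318 CPM in young and from 288 to 337 CPM in aged libraries, a coefficient of variation of 8.37% and 5.01%. The log2 fold changes were 0.14, 0.21 and 0.12 in LT-HSCs, ST-HSCs and bulk-HSCs (SE 0.098), and their edgeR adjusted p were 0.807, 0.504 and 0.740. The 95% interval in LT-HSCs ran from -0.068 to 0.35, in ST-HSCs from 0.0031 to 0.42 and in bulk-HSCs from -0.089 to 0.32, so a change beyond 0.42 on the log2 scale lay outside the interval in each fraction.

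Itgb2, the leukocyte beta subunit, ranged from 4.45 to 48.0 CPM in young and only from 22.2 to 32.7 CPM in aged libraries. In bulk-HSCs it was at 32.8, 41.4 and 48.0 CPM in young and at 22.2, 30.1 and 29.8 CPM in aged libraries. These did not overlap, but with a standard error of 0.49 the log2 fold change of -0.57 did not pass (edgeR adjusted p = 0.747). In LT-HSCs the log2 fold change was 0.41, and it was -0.078 without the third young library, which held 4.45 CPM.

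Itgal, the partner of Itgb2 in LFA-1, was barely detected. It had 0 counts in 4 young libraries, namely the 3 of bulk-HSCs and replicate 3 of LT-HSCs, and in replicate 3 of the aged LT-HSCs. Aged bulk-HSCs held 1.98, 2.89 and 4.78 CPM, on average at least 21.7-fold higher than 3 counts per library in the young. That difference did not pass (edgeR adjusted p = 0.123), and young ST-HSCs, at 6.89, 2.36 and 0.227 CPM, averaged 3.16 CPM, close to the aged bulk-HSCs. DESeq2 called it in bulk-HSCs. The 3 young bulk-HSC libraries also had 61, 29 and 67 well-covered genes at 0, and the 21.7-fold bound covers counting error only.

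Cd44, the hyaluronan receptor, was at 71.6 to 214 CPM in young and at 130 to 184 CPM in aged libraries. Its log2 fold changes were 0.16, 0.19 and -0.095 in LT-HSCs, ST-HSCs and bulk-HSCs (SE 0.27), with edgeR adjusted p of 0.970, 0.968 and 0.961. The lowest value, 71.6 CPM, was the third young ST-HSC library, without which the log2 fold change in ST-HSCs was -0.15.

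**Figure D3:**
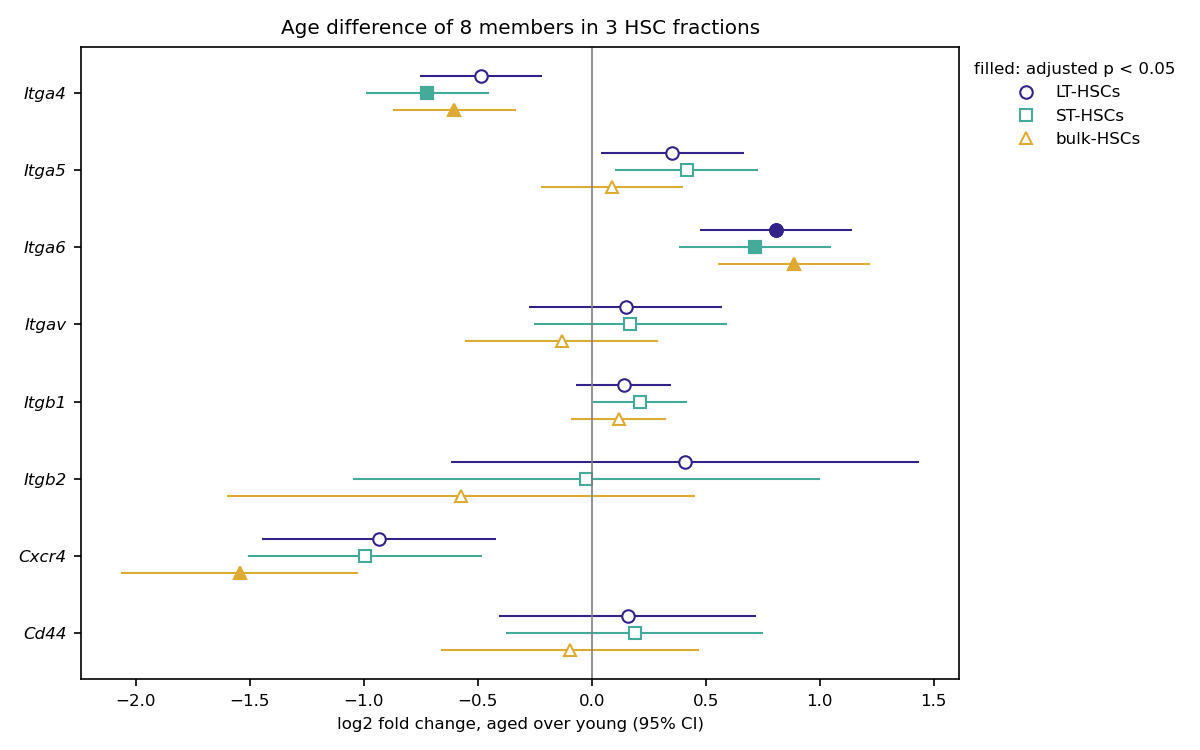
Log2 fold change of aged over young for 8 members (Itgal, at or near 0 counts in many libraries, is left out) in LT-HSCs (circles), ST-HSCs (squares) and bulk-HSCs (triangles), with 95% intervals and filled symbols where the adjusted p was under 0.05. Itga6 lies at 0.72 to 0.89, Itga4 at -0.72 to -0.49 and Cxcr4 at -1.54 to -0.93, and the intervals of each of these genes overlap among the fractions.

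Averaged over the 3 fractions in the same fit, a comparison added after the values were seen, the age difference passed for the same 3 members. The log2 fold change was 0.80 for Itga6 (SE 0.091, edgeR adjusted p = 2.15e-05), -0.60 for Itga4 (SE 0.074, edgeR adjusted p = 5.08e-05) and -1.16 for Cxcr4 (SE 0.14, edgeR adjusted p = 5.08e-05). Of all genes, 4.34% were called higher and 2.4% lower in this comparison. Itga5 (0.29, SE 0.086, edgeR adjusted p = 0.0533) and Itgb1 (0.16, SE 0.057, edgeR adjusted p = 0.121) did not pass. Itga5 passed without the first or the second young or the third aged LT-HSC library (adjusted p 0.0494, 0.0333 and 0.0372) and by DESeq2 (adjusted p 0.0180), and Itgb1 without the second young ST-HSC library (adjusted p 0.0349). Each of the 3 calls was kept with any 1 of the 18 libraries left out, at an adjusted p of at most 0.000233. If fractions of one age shared animals, the 9 libraries of that age were not independent. When the number of detected genes, which was higher in most aged libraries, was added to the edgeR model, Itga6 (0.75, edgeR adjusted p = 0.0155) and Itga4 (-0.57, edgeR adjusted p = 0.0172) were called in this average. Cxcr4 (-0.80, edgeR adjusted p = 0.0601) was not. Within the single fractions none of the members was called in that model.

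Since Itga4 and Itga6 pair with the same beta subunit, their levels per length were compared within each library. In young LT-HSCs the Itga6 to Itga4 ratio was 1.67, 1.54 and 1.04, in young ST-HSCs 0.993, 1.23 and 1.28 and in young bulk-HSCs 1.09, 1.14 and 1.14. Aged LT-HSCs gave 3.30, 3.74 and 3.39, aged ST-HSCs 3.09, 3.45 and 2.999 and aged bulk-HSCs 3.16, 3.18 and 3.13. Young libraries thus held the 2 transcripts at similar levels per length, and aged libraries about 3 times as much Itga6 as Itga4. The mean ratio was 2.46-fold higher in aged than in young LT-HSCs, 2.72-fold in ST-HSCs and 2.81-fold in bulk-HSCs. These folds restate the changes of Itga4 and Itga6 above and do not depend on the length or the scaling of the libraries, but the ratios themselves do, and ran from 1.45 to 2.44 in young libraries with the longest transcript as the length.

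As a share of the summed RPKM of the 4 alpha subunits among the members that pair with Itgb1, Itga6 went from 40.3% to 55.0% in LT-HSCs, from 39.5% to 54.7% in ST-HSCs and from 36.3% to 55.7% in bulk-HSCs. Itga4 went from 29.0% to 15.9%, from 33.9% to 17.3% and from 32.3% to 17.7%. Itga5 stayed between 18.5% and 23.5% in the group means and Itgav between 5.93% and 8.89%. The sum of the 4 was 80.3 to 108 RPKM in young and 109 to 130 RPKM in aged libraries, beside 69.1 and 77.0 RPKM of Itgb1 on average. Like the ratios, these shares and sums depend on the length taken, here the summed exons.

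**Figure D4:**
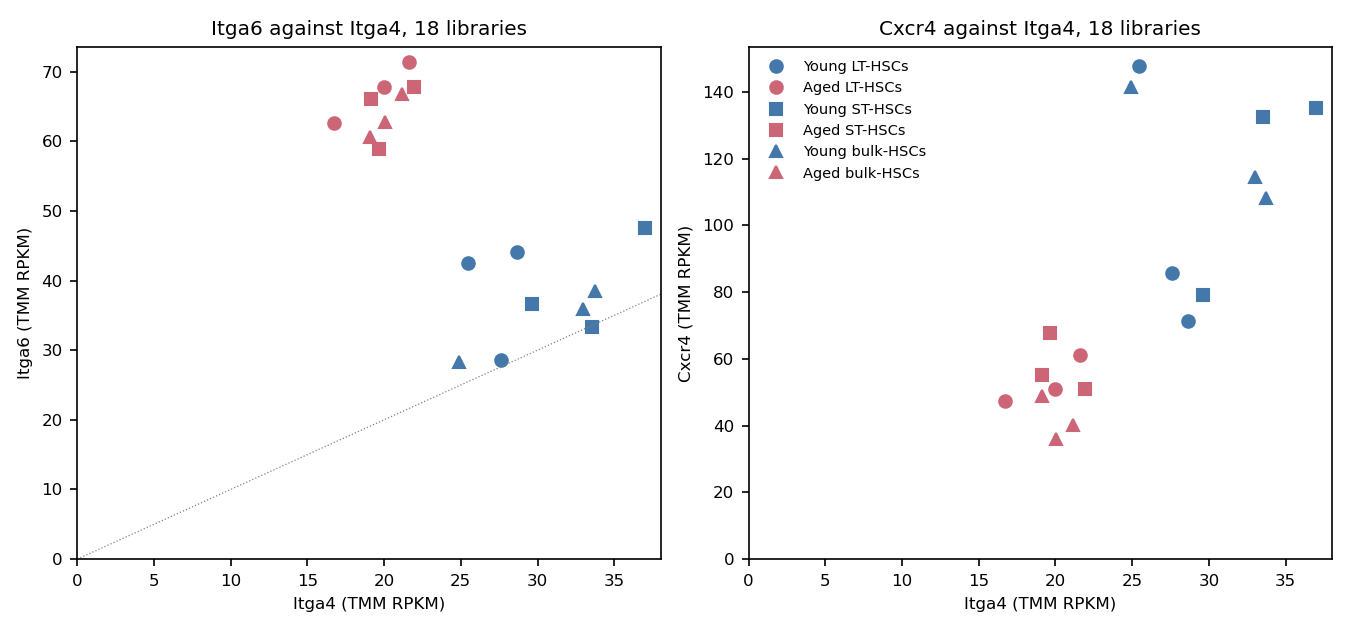
Itga6 (left) and Cxcr4 (right) against Itga4, each in TMM RPKM, in 18 libraries, with young libraries in blue, aged in red, the fraction given by the symbol and equal levels as a dotted line on the left. Aged libraries sit at Itga6 to Itga4 ratios of 2.999 to 3.74 and young ones at 0.993 to 1.67, and Itga4 and Cxcr4 are both low in the aged libraries.

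Within one age, the fractions were compared to ask whether Hoxb5-positive and Hoxb5-negative cells carry different receptors. None of the 9 members was called in any of the 6 comparisons by edgeR. In young mice 0.429% of all genes were called between LT-HSCs and ST-HSCs, 0.273% between LT-HSCs and bulk-HSCs and 0.164% between ST-HSCs and bulk-HSCs. In aged mice the corresponding shares were 0.00781%, 0% and 0%. At an unadjusted p under 0.05, edgeR gave 1 member in each of the 3 young comparisons. This was Itga4 between LT-HSCs and ST-HSCs and Itgal in both comparisons with bulk-HSCs. It gave 1 between aged LT-HSCs and bulk-HSCs (Itgav) and 0 in the other aged comparisons. The share of all genes at that unadjusted threshold was not counted, so these counts are not a result about the members. DESeq2 called Itgal, which was at 0 in young bulk-HSCs, in both young comparisons with bulk-HSCs and no other member, and limma-voom called 0.

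Itga4 came closest between young LT-HSCs and ST-HSCs, where the 3 LT-HSC libraries (356 to 401 CPM) lay below the 3 ST-HSC libraries (414 to 517 CPM). The log2 fold change was -0.29 (SE 0.13), with an unadjusted p of 0.0336 and an edgeR adjusted p of 0.420. In aged mice the difference was -0.058, with a 95% interval from -0.33 to 0.21. Itgav was higher in aged LT-HSCs (84.4 to 108 CPM) than in aged bulk-HSCs (66.8 to 76.3 CPM), by 0.43 on the log2 scale, and failed the adjustment (edgeR unadjusted p = 0.0473, adjusted p = 1). Between aged LT-HSCs and ST-HSCs the 95% interval for Itga6 ran from -0.27 to 0.40 and for Cxcr4 from -0.64 to 0.39.

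The age difference itself was compared among fractions with interaction terms, and none of the 9 members was called by edgeR, DESeq2 or limma-voom. Of all genes, 0% were called between LT-HSCs and ST-HSCs, 0.00781% between LT-HSCs and bulk-HSCs and 0.0625% between ST-HSCs and bulk-HSCs. At an unadjusted p under 0.05 edgeR gave 0, 1 and 1 members, the one being Itgal, and the share of all genes at that threshold was not counted. For Cxcr4 the age difference was smaller in LT-HSCs than in bulk-HSCs by 0.61 on the log2 scale (95% interval -0.11 to 1.33, edgeR adjusted p = 0.884). For Itga4 the LT-HSC and ST-HSC effects differed by 0.24 (95% interval -0.14 to 0.61). Itga4 and Cxcr4 passed the age test in some fractions and not in others, but no difference between fractions was shown for them.

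Libraries were more alike within the aged groups than within the young ones. The pooled SD of log2(CPM + 1) within groups was larger in young than in aged libraries for all 9 members, as it was for 84.8% of all genes tested. For Itgb2 it was 0.95 in young and 0.20 in aged libraries, for Cd44 0.54 and 0.14 and for Itga6 0.28 and 0.092. Itga4, at 0.18 and 0.13, and Itgal, at 0.97 and 0.86, differed the least in proportion. The third young LT-HSC library, the lowest for Itgb2, and the third young ST-HSC library, the lowest for Cd44, were also those with the fewest detected genes (11665 and 11548) and the most well-covered genes at 0 (163 and 160). The part of this in their low values was not tested.

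The other genes of these pathways were taken from 4 lists of 87 genes, of which 70 were tested. LT-HSCs had 2 called higher and 1 lower, ST-HSCs 3 and 2, and bulk-HSCs 5 and 1. Of all genes tested, 0.304% were called higher and 0.141% lower in LT-HSCs, 0.625% and 0.226% in ST-HSCs, and 1.53% and 0.445% in bulk-HSCs. Among the other integrin subunits, 1 of 10 tested was called in each fraction, and it was Itgb3, a further partner of Itgav. Itgb3 averaged 202 CPM in young and 450 CPM in aged LT-HSCs (log2 fold change 1.16, SE 0.17, edgeR adjusted p = 0.00477). In ST-HSCs it went from 94.1 to 283 CPM (1.59, SE 0.17, edgeR adjusted p = 8.48e-05) and in bulk-HSCs from 91.9 to 317 CPM (1.79, SE 0.17, edgeR adjusted p = 3.15e-05). Its libraries did not overlap between the ages in any fraction, while Itgav itself passed in none. Young LT-HSCs thus held more Itgb3 than young ST-HSCs, and the part of the LT-HSC share in the bulk-HSC difference was not tested. Itga2b, the platelet partner of Itgb3, was looked at after its values were seen. It was at 49.7 to 123 CPM in young and at 82.0 to 145 CPM in aged libraries and was not called (edgeR adjusted p of 0.370, 0.354 and 0.943 in LT-HSCs, ST-HSCs and bulk-HSCs).

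**Figure D5:**
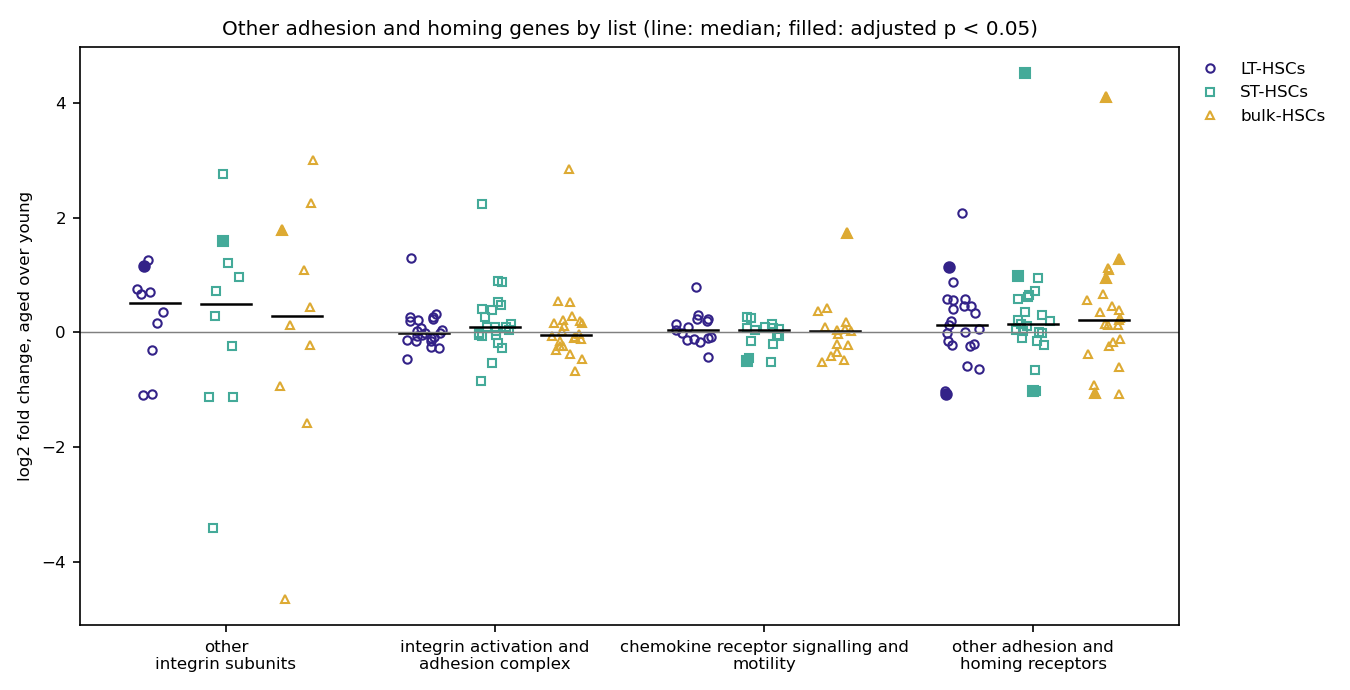
Log2 fold change of aged over young for the tested genes of 4 lists of other adhesion and homing genes, in LT-HSCs (circles), ST-HSCs (squares) and bulk-HSCs (triangles), with list medians as lines and filled symbols where the adjusted p was under 0.05. The integrin activation list has no filled symbol and medians between -0.046 and 0.089, and Selp stands out at 4.52 in ST-HSCs and 4.10 in bulk-HSCs.

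None of the 22 tested genes for integrin activation and the adhesion complex, such as talin, kindlin and Rap1 pathway genes, was called by edgeR in any fraction. Without adjustment, 1, 6 and 2 had a p under 0.05 in LT-HSCs, ST-HSCs and bulk-HSCs. The share of all genes at that unadjusted threshold was not counted. DESeq2 called 0, 1 and 0, as did limma-voom. The gene with the smallest p was each time Rap1b, a small GTPase that acts on integrins, with log2 fold changes of 0.27, 0.47 and 0.29. The list medians were -0.010, 0.089 and -0.046, near those of all genes.

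Of 15 tested genes of chemokine receptor signalling and motility, edgeR called 0 in LT-HSCs, DESeq2 called 1 and limma-voom called 0. An unadjusted p under 0.05 was seen for 2 of them, and all genes at that threshold were again not counted. The gene with the smallest p was Rac2, a small GTPase of blood cells (log2 fold change -0.42, edgeR adjusted p = 0.125). In ST-HSCs Rac2 was called, at 259 CPM in young and 183 CPM in aged cells (-0.50, SE 0.11, edgeR adjusted p = 0.0390). Across the fractions it was at 231 to 277 CPM in young and at 164 to 208 CPM in aged libraries. Its average over fractions was called (-0.44, edgeR adjusted p = 0.000255), and DESeq2 called it in each fraction. The age effects in LT-HSCs and ST-HSCs differed by 0.079 (SE 0.16), so no difference between these fractions was shown. In bulk-HSCs Arrb1, an arrestin that desensitizes chemokine receptors, was called, at 90.5 CPM in young and 300 CPM in aged cells (1.73, SE 0.31, edgeR adjusted p = 0.00556). Young LT-HSCs held 89.3, 331 and 177 CPM of Arrb1, the first of them within the range of young bulk-HSCs (84.7 to 101 CPM), and aged LT-HSCs averaged 344 CPM. Young ST-HSCs already held 288 CPM and aged ST-HSCs 276 CPM. The age difference of Arrb1 was lower in ST-HSCs than in bulk-HSCs by 1.79 on the log2 scale (SE 0.42), which failed the adjustment (edgeR unadjusted p = 0.000544, adjusted p = 0.290).

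Among 23 tested genes for other adhesion and homing receptors, 1 was called higher and 1 lower in LT-HSCs. The counts were 2 and 1 for ST-HSCs and 3 and 1 for bulk-HSCs, where more of all genes were called, at the shares given above. Selp, or P-selectin, an adhesion receptor best known from platelets and endothelium, ranged from 4.92 to 127 CPM in young and from 208 to 410 CPM in aged libraries. Its log2 fold change was 4.52 (SE 0.51, edgeR adjusted p = 0.000119) in ST-HSCs and 4.10 (SE 0.50, edgeR adjusted p = 0.000241) in bulk-HSCs, and it missed the threshold in LT-HSCs (2.07, edgeR adjusted p = 0.0534), where young cells already averaged 86.3 CPM. Alcam, a cell adhesion molecule of the immunoglobulin family, was higher in aged cells of all 3 fractions, by 1.14, 0.98 and 1.28 on the log2 scale (edgeR adjusted p of 0.0264, 0.0425 and 0.00482 in LT-HSCs, ST-HSCs and bulk-HSCs).

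Cd34, a sialomucin that was also stained for the sort, was lower in aged cells of all 3 fractions, at log2 fold changes of -1.08, -1.03 and -1.06 (edgeR adjusted p of 0.0206, 0.0186 and 0.00940 in LT-HSCs, ST-HSCs and bulk-HSCs). Plxnb2, a semaphorin receptor, was called in bulk-HSCs, at 101 CPM in young and 196 CPM in aged cells (0.95, SE 0.21, edgeR adjusted p = 0.0224) and not in the other two fractions. Its age difference was not called as different between fractions (edgeR adjusted p of 0.915 for LT-HSCs against bulk-HSCs and at least as high in the other two comparisons). With 1 library left out, the calls of Itgb3, Selp and Arrb1 were kept in all fits, and those of Alcam and Cd34 in bulk-HSCs as well. In LT-HSCs the call of Alcam was kept only without the third young library (adjusted p up to 0.110 otherwise) and that of Cd34 only without the second young library (up to 0.107). In ST-HSCs Alcam was kept only without the third aged library (up to 0.183 otherwise), Cd34 without the first or the second young library (0.0644 or more otherwise) and Rac2 without the third young or the second aged library (up to 0.167). Plxnb2 in bulk-HSCs was kept without the second young or the first aged library (up to 0.0963 otherwise). In the model with the number of detected genes, bulk-HSCs lost the calls of Arrb1 (log2 fold change 1.03, edgeR adjusted p = 0.136) and Cd34 (-0.66, edgeR adjusted p = 0.234). In that model Alcam, Cd34 and Rac2 also lost theirs in LT-HSCs and ST-HSCs, wherever they had been called. With only the groups compared in the fit, Cd34 (edgeR adjusted p = 0.0750) and Plxnb2 (edgeR adjusted p = 0.0895) were not called in bulk-HSCs.

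To describe what else varied as the members did, every tested gene was ranked by Spearman's rho with each member over the 18 libraries. These values describe libraries that share their age groups, and shared age differences and depth enter them. Closest to Itga4 were Arap3 (rho 0.889), Gtf3c2 (0.868) and Fam210a (0.866). Closest to Itga6 were Lincred1 (0.920), Abhd17b (0.907) and Cpeb2 (0.903), and closest to Cxcr4 were Tsc22d3 (0.928), Hspa8 (0.907) and Sirt6 (0.893). Arap3 was lower in aged cells by 0.84 to 1.03 on the log2 scale, and Tsc22d3, a glucocorticoid-induced gene, by 0.88 to 1.38.

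Closest to Itgb1 were Ptpn11 (0.893), Sppl2a (0.868) and Srsf9 (0.816), closest to Itga5 were Arsa (0.882), Mical1 (0.847) and E2f5 (0.845), and closest to Itgav were Rit1 (0.825), Ambra1 (0.806) and Ddx60 (0.806). Itgb2 went with Il18 (0.940), Zfp850 (0.862) and Dnttip2 (0.829), and Cd44 with 1700017B05Rik (0.860), Tpp2 (0.849) and Capza1 (0.835). For Itgal, with its many zeros, the nearest were Fgfr1op (0.833), Nadsyn1 (0.810) and Prdm4 (0.775). Among the members, Itga4 and Cxcr4 varied together (rho 0.74), Itga6 ran opposite to both (-0.60 and -0.75), and Itgal and Itgb2, the subunits of LFA-1, gave -0.26.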

How the data were processed

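RNA of sorted LT-HSCs, ST-HSCs and bulk-HSCs was converted by the authors to total RNA libraries with a KAPA RNA HyperPrep kit with RiboErase after c-Kit enrichment and a double sort. Reads were mapped by the authors on the mm10 build using HISAT2, and the submitters' processing notes also name SAMtools 1.7 and StringTie 1.3.4d. The strand setting of the counting is not given in the sources used here. The deposited values are whole-number counts for 24421 gene symbols without normalization. The 18 columns were assigned to groups and replicates from the sample labels. From 12.8% to 17.4% of a library's counts fell on the ribosomal RNA gene Rn45s.

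Counts were fitted with edgeR 4.0.16 in R 4.3.3 as 6 group means after TMM scaling, over the 12808 genes whose mean reached 1 CPM, with 12 residual degrees of freedom. Contrasts gave the age difference per fraction, the difference between fractions per age and the interactions. P-values were adjusted over all genes tested, and each standard error is the absolute log2 fold change divided by the square root of F. RPKM divides CPM by the merged exon length from GENCODE M21, which gave a length for 96.0% of the tested symbols. Alternatives used DESeq2 1.42.0 and limma 3.58.1, and figures were drawn with matplotlib in Python. The edgeR fit was also run on simulated counts, with changes in aged LT-HSCs larger than those of Itga4 and Itga6. Genes at 0 in single libraries, as in the young ones, were not simulated. The simulation therefore does not bear on the calls of these members. Fold changes of genes near 0 counts depend on the prior count of the fit, and a fold against a group at 0 is a lower bound computed against 3 counts per library. That floor covers counting error only, and the 95% intervals rest on the spread between libraries.

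The 9 members, the lists of other genes, the tests and the alternatives were chosen with earlier results of these data known. All 9 members were named in every age comparison. Of the other genes, those called were named up to 6 per list, or the 1 with the smallest p where none was called, and 3 genes most like each member by Spearman's rho. Itga2b was named after its values were seen, and the average over fractions and the Itga6 to Itga4 ratio were added after seeing the data. Grk2 was found under its older symbol Adrbk1. The RefSeq promoter table gave the printed sequences.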

Additional observations from a re-analysis of the deposited data

How the results depend on the processing

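Itga6, Itga4 and Cxcr4 kept their direction in every fraction under all 11 alternatives and with each library left out, and Itga6 and Itga4 stayed called in the average over fractions under all 11. For the average, 1 of the 11, the fit of only the groups compared, holds all 6 groups. It repeats the main fit and could not change the result. The calls of Itga6, Itga4 and Cxcr4 within single fractions were less stable. With only the groups compared in the fit, 0 members were called in LT-HSCs and 0 in ST-HSCs, and 0 and 2 of the other pathway genes. That setting also ended the calls of Itga4 (edgeR adjusted p = 0.0834), Cd34 (0.0750) and Plxnb2 (0.0895) in bulk-HSCs. Once detected genes per library entered as a covariate, 0 members were called for LT-HSCs, 0 for ST-HSCs and 0 for bulk-HSCs. The pathway genes called were 1 in LT-HSCs and 3 in ST-HSCs. Of all genes, 23, 54 and 82 were called in the 3 fractions. In the average 153 were, against 864 in the main fit. Arrb1 lost its call with this covariate in bulk-HSCs (log2 fold change 1.03, edgeR adjusted p = 0.136) and in the average (0.30, adjusted p = 0.671), and Cd34 in bulk-HSCs (-0.66, adjusted p = 0.234). DESeq2 called 3 members in LT-HSCs (Cxcr4 and Itga4 besides Itga6), and 5 and 12 pathway genes in LT-HSCs and bulk-HSCs. Of all genes it called 290 in LT-HSCs and 741 in bulk-HSCs. In young cells it called 1 member between LT-HSCs and bulk-HSCs and 1 between ST-HSCs and bulk-HSCs (Itgal). It also called Cxcr4 in ST-HSCs (adjusted p = 0.00110) and Itga5 in the average (0.0180), and edgeR with a filter of 10 counts in every library called Cxcr4 in ST-HSCs (0.0418). In ST-HSCs 3 pathway genes were called with library size alone and 8 with limma-voom, and of all genes 99 and 140. The cause of these changes was not tested. By length of the longest transcript, and likewise in aged libraries alone, 4 of the 9 members kept their place in the order of levels.

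Replicate numbers did not pair the libraries by a shared animal or batch in the labels, and same-numbered libraries of one age correlated in their deviations at -0.054 to 0.14. The library of the same number was the best match in 12 of 18 such pairs and in all 3 of aged LT-HSCs with aged ST-HSCs. Between the ages it was the best match in 12 of 27 pairs and in all 3 of young ST-HSCs with aged ST-HSCs. Each best match was picked among 3 libraries, so 1 in 3 would fall on the same number without any pairing. A shared origin of same-numbered libraries was not tested. With the replicate block over both ages 1 member and 96 of all genes were called in ST-HSCs, Itga6 being at an edgeR adjusted p of 0.0558. The log2 fold change of Itgb2 turned to 0.031 in ST-HSCs and 0.0077 in the average over fractions. Itga5 passed in the average under the block (log2 fold change 0.29, edgeR adjusted p = 0.0243), and of the pathway genes Alcam and Rac2 lost their calls in ST-HSCs. No other call of a member moved with it.

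The differences that changed sign had not passed the test. With the detected-gene covariate Itgb2 (-0.19) and Cd44 (-0.38) reversed in LT-HSCs, Itgal (-1.45) and Cd44 (-0.19) in ST-HSCs, Itga5 (-0.17) in bulk-HSCs and Cd44 (-0.46) in the average, and with limma-voom Itgal did in ST-HSCs (-0.042).

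With each library left out in turn, LT-HSCs had 0 to 2 members called and 1 to 4 pathway genes. ST-HSCs had 0 to 2 and 2 to 4, and bulk-HSCs 2 to 3 and 5 to 7. In LT-HSCs the log2 fold change ran from -0.0032 to 0.40 for Itgav and from -0.078 to 1.11 for Itgb2. In ST-HSCs it ran from -0.33 to 1.61 for Itgal, from -0.25 to 0.35 for Itgb2 and from -0.15 to 0.48 for Cd44. In bulk-HSCs it ran from -0.24 to 0.026 for Itgav and from -0.25 to 0.016 for Cd44, and in the average from -0.23 to 0.18 for Itgb2 and from -0.032 to 0.18 for Cd44. A left-out fit leaves a group of 2 libraries and fewer degrees of freedom. Itgal reached at most 6.89 CPM and had no count in 5 of 18 libraries. It had 0 counts in the second young bulk-HSC library (21508230 counts in all) and 146 in the first young ST-HSC library (21145584 counts in all). The part of depth in its zeros was not tested.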
